A study of Mus musculus with 2 samples.

Results

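The genes described are 3 matrix metalloproteinases, Mmp2, Mmp3 and Mmp14, and 3 tissue inhibitors of metalloproteinases, Timp1, Timp2 and Timp3, in single cells of mouse aorta. They were chosen by name as members of a pathway, by a rule that used no measured value, although earlier results of these data were known when they were chosen. All 6 were found among the 14714 genes of the deposited count table. The EC-iDKO/Apoe KO library, called the double knockout below, holds 5489 cells, and the Apoe KO library holds 2428. Both groups of mice lacked Apoe, which raises plasma cholesterol, and both ate a western diet for 12 weeks, so there was no group with Apoe and none on another diet. The labels do not name the genes behind EC-iDKO; the line is known for an inducible, endothelial loss of the endocytic adaptors Epn1 and Epn2, and the 3' tags counted here do not check that loss. The Cre line, the age and sex of the mice and the number pooled per library are not given in the sources used here. Aortas were dissociated with collagenases, trypsin and related enzymes, CD31 beads appear in the protocol, and yet the labels describe the sample as all cells, so the shares of cell types cannot be taken as those of the tissue.

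Matrix metalloproteinases are zinc enzymes that cut collagens, gelatin, proteoglycans and other proteins outside the cell, and most are made as inactive precursors. Mmp14 sits in the cell membrane, cuts fibrillar collagen and turns the Mmp2 precursor into the active gelatinase. Timp2 has a part on both sides, since it inhibits these enzymes and also bridges Mmp14 and the Mmp2 precursor at the cell surface. Mmp3, or stromelysin, cuts proteoglycans and can activate other precursors. Timp1 is a secreted inhibitor that acts weakly on Mmp14 and other membrane types, and Timp3 is the family member that binds to the matrix and also inhibits ADAM and ADAMTS enzymes. In the artery wall these genes are known for their role in remodelling of the fibrous cap of plaques and of the media.

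The parts of the coding sequence that carry each activity are shown because they define which members are enzymes and which inhibitors. For the enzymes this is the stretch that encodes the zinc-binding motif, with the 3 histidine codons in capitals, read 5′ to 3′ from the GENCODE M21 transcripts on GRCm38.
Mmp2: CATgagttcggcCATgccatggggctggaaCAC
Mmp3: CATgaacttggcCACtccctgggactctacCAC
Mmp14: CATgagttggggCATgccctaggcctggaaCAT
These stretches lie in exon 8 of Mmp2 (chr8:92839279-92839311, plus strand), in exon 5 of Mmp3 (chr9:7449775-7449807, plus strand) and in exon 5 of Mmp14 (chr14:54437627-54437659, plus strand). Mmp2 and Mmp14 shared 27 of 33 bases there, Mmp2 and Mmp3 shared 23, and Mmp3 and Mmp14 shared 21.

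For the inhibitors the stretch encodes the start of the mature protein, with the codons of its first 3 cysteines in capitals. The first of these cysteines is the residue that occupies the active site of the enzyme.
Timp1: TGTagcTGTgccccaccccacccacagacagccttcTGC
Timp2: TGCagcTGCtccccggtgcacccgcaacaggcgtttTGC
Timp3: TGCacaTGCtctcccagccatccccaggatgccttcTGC
These lie in exon 2 of Timp1 (chrX:20871111-20871149, plus strand), exon 1 of Timp2 (chr11:118354974-118355012, minus strand) and exon 1 of Timp3 (chr10:86300923-86300961, plus strand). Each pair of inhibitors shared 25 of 39 bases. The transcripts encode 662 codons for Mmp2, 479 for Mmp3, 582 for Mmp14, 205 for Timp1, 220 for Timp2 and 211 for Timp3, stop codons left out.

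Timp1 lies within Syn1 and Timp3 within Syn3, both on the opposite strand, and Timp2 overlaps Cep295nl on its own strand. Syn1 had 3 UMIs in the double knockout and 29 in Apoe KO, and Cep295nl had 17 and 32. Syn3, a synapsin, had 610 UMIs in the double knockout and 1919 in Apoe KO. Whether counting used strand is not given in the sources used here, and without strand the reads of Timp3 and of the overlapping part of Syn3 cannot be told apart.

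Promoters are shown for the member with the fewest clusters in which any UMI was found, Mmp3, and for a member found in every cluster, Timp3, as the 250 bases before the start in RefSeq on GRCm38.p6. The AP-1 motif, TGANTCA, was searched on both strands, and its match is in capitals. The GC box, GGGCGG, was searched in the same way and left in lower case, as was the core promoter motif spelled TATAAA.
Mmp3: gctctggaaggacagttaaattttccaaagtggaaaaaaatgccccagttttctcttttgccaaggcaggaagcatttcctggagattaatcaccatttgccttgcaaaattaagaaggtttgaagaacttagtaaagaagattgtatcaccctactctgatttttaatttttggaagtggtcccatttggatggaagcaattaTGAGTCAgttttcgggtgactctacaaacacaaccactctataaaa
Timp3: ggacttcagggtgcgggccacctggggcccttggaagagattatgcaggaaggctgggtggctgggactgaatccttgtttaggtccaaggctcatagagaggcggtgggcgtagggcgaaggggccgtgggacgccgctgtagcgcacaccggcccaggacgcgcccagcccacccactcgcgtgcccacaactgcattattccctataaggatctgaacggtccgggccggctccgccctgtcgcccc
The Mmp3 window (chr9:7445572-7445821, plus strand) held TGANTCA 46 bases before the start and TATAAA 7 bases before it, and held no GGGCGG. The Timp3 window (chr10:86300162-86300411, plus strand) held GGGCGG 15 bases before the start and neither of the others. GGGCGG also stood in the windows of Mmp14, Timp1 and Timp2, and Mmp2 was named only. Of 32851 RefSeq windows, 6.75% held TGANTCA, 32.7% GGGCGG and 12.4% TATAAA, so each of these matches is common.

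The count table listed 10345 entries, of which 2428 repeated Apoe KO cells with identical counts, and each of the 7917 cells was counted once. The libraries shared 5 barcodes. Depth differed widely: the median cell had 769 UMIs in the double knockout and 3770 in Apoe KO, and the libraries summed to 6853185 and 13304762 UMIs. Levels are therefore given as UMIs summed over the cells of a population per 1000000 UMIs of that population (CPM), and set side by side between libraries for the same gene and population, never between genes. There was 1 library per genotype, so no test between genotypes could be made. Ratios are the double knockout over Apoe KO, with a 95% interval that covers counting error and not the spread between mice. A gene was called higher or lower where the ratio was at least 1.5 in either direction, the interval left out 1 and both libraries together held at least 20 UMIs.

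Populations were taken from the deposited classes and clusters. Smooth muscle is the deposited SMC class without cluster 15, whose leading genes are those of fat cells (Cfd, Car3, Adipoq). The 9 contractile markers such as Myh11 and Acta2 were all detected in it, at a summed 58863 CPM in the double knockout and 56197 in Apoe KO. Fibroblast markers summed to 1641 CPM in the double knockout, where 9 of 10 were detected and Clec3b was at 0, and to 2260 in Apoe KO, where 10 were detected. Macrophage markers summed to 15.3 CPM from 8 of 10 genes in the double knockout and to 95.7 CPM from 9 of 10 in Apoe KO. Chondrocyte-like markers summed to 135 and 392 CPM from 8 of 8 genes in each, and the 6 dissociation stress genes to 6257 and 11070 CPM. The part of these differences in the smooth muscle results was not tested. The deposited class modEC was described by cluster number, since its clusters differ. Cluster 7 is led by Cxcl5, Vcam1 and Mt1, and cluster 8 by the matrix genes Lum and Dcn, by Timp1 itself, Lcn2 and C3. Cluster 10 is led by Ibsp and by the cartilage genes Chad and Comp. Cluster 9 of the EC class is led by the endothelial genes Ptprb and Pecam1, and cluster 13 of the immune class by Cd74, C1qb and Lyz2. The deposited fibroblast class is mostly cluster 14, whose 10 leading genes (Adamtsl1, Fbln1, Sfrp2, Gpc3 and others) held none of the fibroblast markers used, so the name is the depositors'.

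The 3 proteases were called lower in the double knockout in the library as a whole. By cluster, Mmp2 was called lower in 11 of the 13 clusters with at least 20 UMIs, Mmp14 in 6 of 16 and Mmp3 in 1 of 2, which was cluster 8. Over all genes, 6.82% of gene and cluster pairs were called lower. Timp1 was called higher in smooth muscle, in clusters 7, 8 and 10 and in endothelial cluster 9. Timp2 differed little in any of these. Timp3 was called lower in clusters 8 and 10 and higher in macrophage-like cluster 13. Summed over the library, 3 of the 6 genes were called lower, against 13.1% of the 13257 genes counted, and 0 were called higher, against 9.53%. The library sums mix levels with the makeup of the cells, since cluster 8 was 2.70% of double knockout cells and 7.58% of Apoe KO cells.

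Mmp2, the gelatinase, had 171 UMIs in the double knockout and 1368 in Apoe KO, or 25.0 against 103 CPM, a ratio of 0.243 (interval 0.206 to 0.285). Its levels ran from cluster to cluster in a similar order. In the double knockout the highest were cluster 14 at 165 CPM, cluster 8 at 107 and cluster 10 at 57.7, whose intervals overlapped. In Apoe KO the highest were cluster 8 at 428 CPM, apart from the next by its interval, then cluster 14 at 312 and cluster 10 at 266, which overlapped, and the lowest of the clusters compared was the smooth muscle cluster 11 at 15.0. Both libraries thus placed the same 3 clusters first, although cluster 10 of the double knockout had 4 Mmp2 UMIs (interval 15.7 to 148 CPM). That interval overlaps those of cluster 9 at 51.9 CPM and cluster 7 at 42.2, so the place of cluster 10 is not resolved there.

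Of the 18 clusters with at least 50 cells in both libraries, 13 held at least 20 Mmp2 UMIs. In 11 of the 13 Mmp2 was called lower, where over all genes 6.82% of 105226 gene and cluster pairs were called lower. Over all 18, those with few UMIs included, the ratio lay between 0.0779 and 0.984, with a median of 0.442, and the value nearest to 1 came from 1 and 18 UMIs. Smooth muscle Mmp2 had 85 UMIs in the double knockout and 267 in Apoe KO, or 15.5 against 31.2 CPM, a ratio of 0.497 (0.385 to 0.637). Cluster 8 had 22 UMIs in the double knockout and 658 in Apoe KO, or 107 against 428 CPM, a 3.98-fold lower level. After thinning the cluster 8 ratio was 0.280 (0.0995 to 0.638), still called lower. In the fibroblast class the ratio was 0.555 (0.326 to 0.893), from 19 and 173 UMIs, and in cluster 7 it was 0.509 (0.292 to 0.856) from 21 and 54 UMIs. In cluster 10 it was 0.217 (0.0585 to 0.567) from 4 and 160 UMIs. After thinning to 1000 UMIs it was 1.11 (0.128 to 4.39) in cluster 10, where only 10 double knockout cells were left, 2 of them with Mmp2. Endothelial cluster 9 had 14 and 28 Mmp2 UMIs, and its ratio of 0.530 (0.258 to 1.04) was not called and was 1.56 (0.462 to 4.23) among cells with at least 2000 UMIs.

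Mmp14, the membrane-bound activator, had 171 UMIs in the double knockout and 957 in Apoe KO, or 25.0 against 71.9 CPM, a ratio of 0.347 (0.293 to 0.409). In the double knockout its highest levels were 92.8 CPM in cluster 8 and 62.8 in cluster 14. In Apoe KO they were 214 CPM in cluster 8, 147 in macrophage-like cluster 13, 99.3 in cluster 9 and 98.3 in cluster 14. Mmp14 was the member for which macrophages stood second in Apoe KO.

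Mmp14 was called lower in 6 of the 16 clusters with at least 20 UMIs, which were clusters 0, 3, 5, 7, 8 and 9, and was called higher in 0. Over all genes, 6.82% of gene and cluster pairs were called lower and 7.84% higher. In smooth muscle the level was 21.9 CPM in the double knockout and 37.1 in Apoe KO (120 and 318 UMIs), a ratio of 0.589 (0.474 to 0.729). Cluster 8 gave 92.8 against 214 CPM, a ratio of 0.434 (0.258 to 0.688), which was 0.789 (0.316 to 1.73) after thinning to 1000 UMIs and then not called. In endothelial cluster 9 Mmp14 had 2 UMIs in 287 double knockout cells and 27 in 96 Apoe KO cells, and the ratio was 0.0786 (0.00906 to 0.313). Cluster 9 of Apoe KO also held more macrophage RNA: the 10 macrophage markers summed to 51.7 CPM in the double knockout, where 4 were detected and C1qa, C1qb, Adgre1, Csf1r, Lyz2 and Mrc1 were at 0, and to 2270 CPM in Apoe KO, where 9 were detected. Fibroblast markers summed to 1395 CPM in the double knockout and 5008 in Apoe KO, from 9 of 10 genes in each. The 9 contractile markers summed to 32642 and 33972 CPM, and the 10 endothelial markers to 5309 and 3034 CPM. The part of this other RNA in the Mmp14 difference and in the other cluster 9 results was not tested. In macrophage-like cluster 13 Mmp14 had 2 and 127 UMIs, and the ratio of 0.279 (0.0334 to 1.03) was not called.

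Mmp3, the stromelysin, was the rarest, with 32 UMIs in the double knockout and 321 in Apoe KO, or 4.67 against 24.1 CPM, a ratio of 0.194 (0.130 to 0.279). Cluster 8 held 6 of those UMIs in the double knockout and 239 in Apoe KO, or 29.3 against 155 CPM, a 5.31-fold lower level (ratio interval 0.0685 to 0.416). After thinning to 1000 UMIs that ratio was 0.398 (0.0771 to 1.30) from 29 UMIs and was not called. The next cluster in Apoe KO was cluster 10, at 33.2 CPM. Smooth muscle had 18 and 42 Mmp3 UMIs, and the ratio of 0.669 (0.363 to 1.19) was not called. Outside cluster 8 only cluster 10 reached 20 UMIs, with 1 in the double knockout and 20 in Apoe KO, and its ratio of 0.435 (0.0105 to 2.72) was not called.

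Mmp3 came from few cells. In cluster 8 the UMIs lay in 4 of 148 double knockout cells, with at most 3 per cell, and in 28 of 184 Apoe KO cells, with as many as 72 in a single cell. Without the cell with the most Mmp3 UMIs in each library the ratio was 0.134. The 28 Apoe KO cells with Mmp3 were deeper, with a median of 7933 UMIs against 4399 in the other 156, so some of the others may hold Mmp3 below detection. Those 28 cells had 1858 CPM of Timp1 against 1151 in the other cells, and 288 CPM of Mmp2 against 457. Prg4, which encodes the lubricant proteoglycan lubricin, was at 488 against 174 CPM. C3 was at 746 against 571 CPM, and Col11a2 went the other way, at 87.1 against 171 CPM. In the double knockout the 4 Mmp3 cells held 26 Timp1 UMIs, or 7008 CPM, against 2044 CPM in the other 144. Of the 3710 UMIs of those 4 cells, none came from Mmp2, Mmp14, Prg4, C3, Col11a2 or Lum, and 5 came from Dcn. The other 144 cells held 109 CPM of Mmp2, 94.5 of Mmp14, 129 of Prg4 and 502 of C3, with Col11a2 at 0. At these levels 3710 UMIs are too few to show that a gene is absent. Lum was at 1432 CPM and Dcn at 3690 CPM in the other 144.

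**Figure D1:**
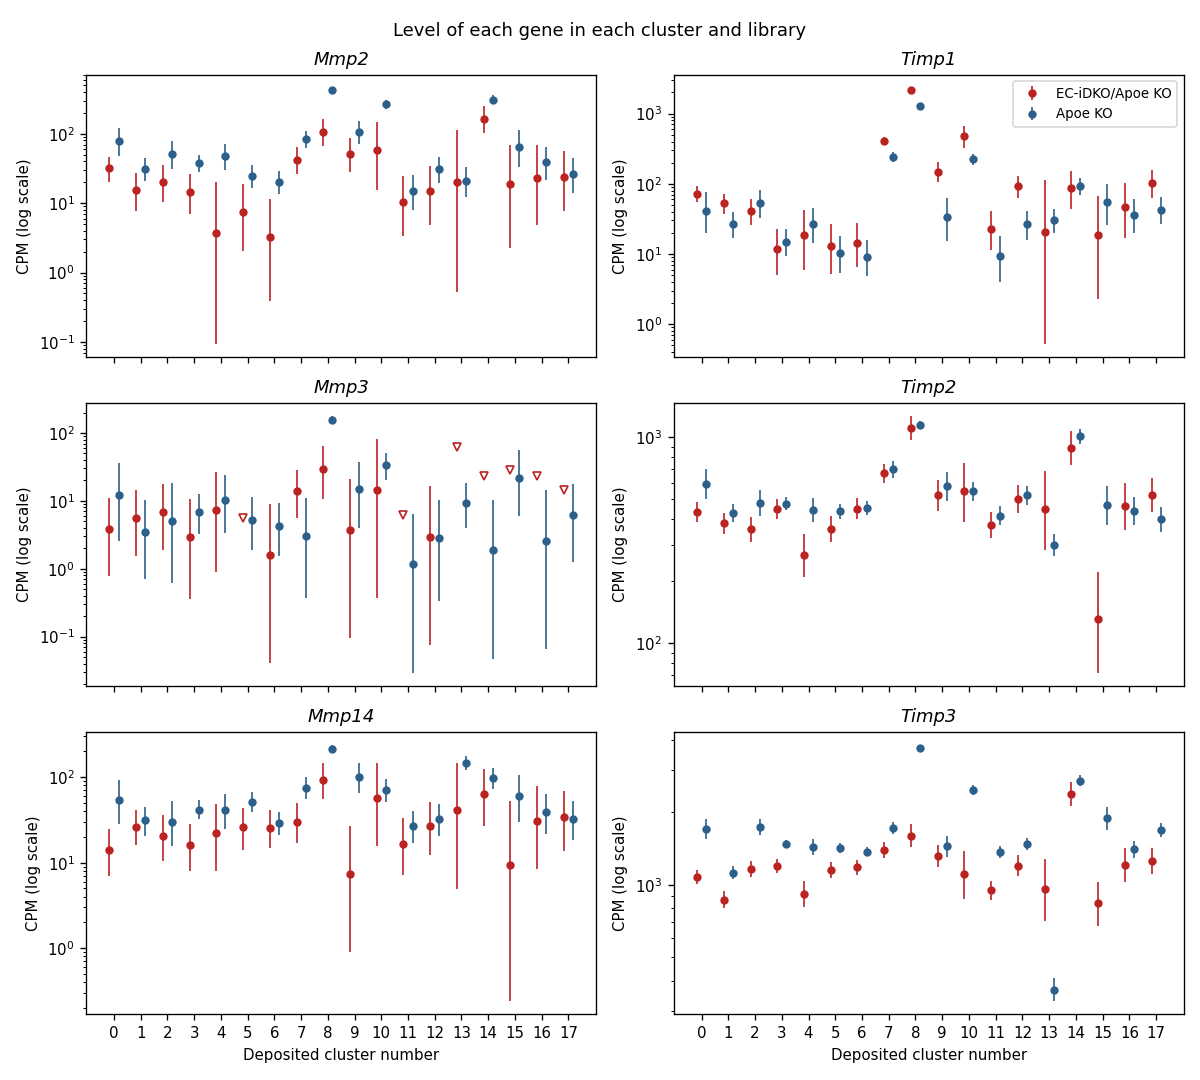
Level of each gene in CPM on a log axis by deposited cluster, over the 18 clusters with at least 50 cells in both libraries, with the double knockout in red left of Apoe KO in blue and 95% Poisson intervals as bars; open triangles mark the limit of 3 UMIs where a cluster had 0. Mmp2 is called lower in the double knockout in 11 of 13 clusters with at least 20 UMIs, against 6.82% of all gene and cluster pairs. The Timp1 peak in cluster 8 reaches 2134 CPM in the double knockout and 1273 in Apoe KO.

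Timp1, the secreted inhibitor, was concentrated in cluster 8, which it helps to define, so its height there is a description of the clustering. Over the library it had 955 UMIs in the double knockout and 2528 in Apoe KO, or 139 against 190 CPM, a ratio of 0.733 (0.680 to 0.790) that was not called. In both libraries cluster 8 came first, with 2134 CPM in the double knockout and 1273 in Apoe KO. Clusters 10 and 7 came next, at 476 and 410 CPM in the double knockout and at 224 and 244 CPM in Apoe KO, with overlapping intervals in each library. The low end was in smooth muscle clusters, such as cluster 6 with 14.5 and 9.20 CPM.

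By cluster, the Timp1 ratio was above 1 in 12 of 18 clusters and below 1 in 6. It was called higher in the double knockout in 7 of the 14 clusters with at least 20 UMIs (clusters 1, 7, 8, 9, 10, 12 and 17) and lower in 0, where 7.84% of all gene and cluster pairs were called higher. The ratio was 1.68 (1.51 to 1.86) in cluster 8 from 437 and 1957 UMIs, 1.68 (1.36 to 2.08) in cluster 7 and 2.12 (1.41 to 3.13) in cluster 10. Endothelial cluster 9 had 30 Timp1 UMIs in the double knockout and 9 in Apoe KO, or 119 against 33.7 CPM, a ratio of 3.54 (1.64 to 8.47). The fibroblast class, with 8 and 50 UMIs, lay on the other side of 1, at 0.808 (0.331 to 1.72), and was not called. With clusters weighted by their Apoe KO UMIs, the library ratio was 1.68 in place of 0.733. Cluster 8 held 45.8% of Timp1 UMIs in the double knockout and 77.4% in Apoe KO. The weighted ratio thus rests mostly on cluster 8, whose own ratio was 1.68. The part of cell makeup in the library ratio was not tested.

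In smooth muscle Timp1 was low, with 230 UMIs or 41.9 CPM in the double knockout and 181 UMIs or 21.1 CPM in Apoe KO, a ratio of 1.98 (1.63 to 2.42). The sum mixes clusters in unlike shares, since cluster 0 gave 1099 of 4348 double knockout cells and 94 of 1516 Apoe KO cells. Of its main clusters, taken whole, 1, 12 and 17 were called higher, at 1.99, 3.44 and 2.37. Clusters 0, 5, 6, 11 and 16 lay above 1 and were not called. Clusters 2, 3 and 4 lay below 1, at 0.772, 0.783 and 0.689, and were not called. The part of this makeup in the smooth muscle ratio was not tested. The smooth muscle call also depended on the cells used. Among cells with at least 2000 UMIs the levels were 29.2 and 20.1 CPM with a ratio of 1.46 (1.09 to 1.93), and after every cell was thinned to 1000 UMIs the ratio was 1.34 (0.859 to 2.12), neither of which was called. In endothelial cluster 9 the thinned ratio was 0.797, below 1, from 2 and 4 cells with a Timp1 UMI. In cluster 8 the Timp1 ratio was 2.71 (2.04 to 3.60) after thinning and 1.48 (1.27 to 1.73) among cells with at least 2000 UMIs, just under the 1.5-fold rule. In cluster 7 the ratio among cells with at least 2000 UMIs was 1.32 (0.987 to 1.75), and cluster 10 had 1 double knockout cell of that depth, too few for a value.

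Timp2, the inhibitor that also bridges Mmp14 and Mmp2, was broad and the most even between libraries. It had 3153 UMIs in the double knockout and 7503 in Apoe KO, or 460 against 564 CPM, a ratio of 0.816 (0.782 to 0.851). The smooth muscle levels were 414 and 454 CPM with a ratio of 0.913 (0.867 to 0.962), and in cluster 8 they were 1108 and 1143 CPM with a ratio of 0.969 (0.841 to 1.11). Cluster 7 gave 667 against 698 CPM, cluster 10 gave 548 against 546, endothelial cluster 9 gave 528 against 577, and the fibroblast class gave 911 against 1014. None of these was called. Timp2 was called lower in 2 of 18 clusters and higher in 0, against 6.82% and 7.84% of all gene and cluster pairs. The 2 were cluster 4 and the adipocyte-like cluster 15. Cluster 15 had 14 Timp2 UMIs in the double knockout and 86 in Apoe KO, or 132 against 468 CPM. Timp2 ratios were below 1 in 14 of 18 clusters, with a median of 0.925.

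Timp3, the matrix-bound inhibitor, was found in every cluster, with 8370 UMIs in the double knockout and 23125 in Apoe KO, or 1221 against 1738 CPM, a ratio of 0.703 (0.685 to 0.721). Its smooth muscle levels were 1096 and 1428 CPM, a ratio of 0.768 (0.744 to 0.792), which did not reach the 1.5-fold rule. In cluster 8 Timp3 had 328 UMIs or 1602 CPM in the double knockout and 5706 UMIs or 3711 CPM in Apoe KO, a ratio of 0.432 (0.385 to 0.482). Cluster 10 gave 1111 against 2478 CPM, a ratio of 0.448 (0.352 to 0.564). The fibroblast class, with 2463 and 2808 CPM, and endothelial cluster 9, with 1359 and 1446 CPM, had ratios of 0.877 and 0.940 (0.810 to 1.09). Over the whole deposited EC class, which adds cluster 19 and other cells, the Timp3 ratio was 1.95 (1.74 to 2.20). Over the 18 clusters Timp3 was called lower in 5 (clusters 0, 4, 8, 10 and 15) and higher in 1, against 6.82% and 7.84% of all gene and cluster pairs.

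That single cluster was macrophage-like cluster 13, with 47 Timp3 UMIs or 963 CPM in 53 double knockout cells and 318 UMIs or 368 CPM in 144 Apoe KO cells, a ratio of 2.62 (1.89 to 3.57). The same cells differed in contractile RNA, which macrophages are not known to make: the 9 smooth muscle markers summed to 41071 CPM in the double knockout and 14633 in Apoe KO, with Myh11 at 3462 and 1199. The 10 macrophage markers summed to 5490 CPM in the double knockout and 21099 in Apoe KO. The part of this RNA in the Timp3 difference was not tested. The median of all genes with at least 20 UMIs there was -0.17 on the log2 ratio scale, so the Timp3 ratio stands above that shift.

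Cluster 19 is a second endothelial cluster, led by Sema3g, Podxl and Cldn5, with 67 double knockout cells and 9 Apoe KO cells, too few for a comparison. Timp3 there had 510 UMIs or 4945 CPM (4525 to 5393) in the double knockout, the highest Timp3 level of any cluster of that library, and was found in 65 of the 67 cells. In the 9 Apoe KO cells it had 13 UMIs or 411 CPM.

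**Figure D2:**
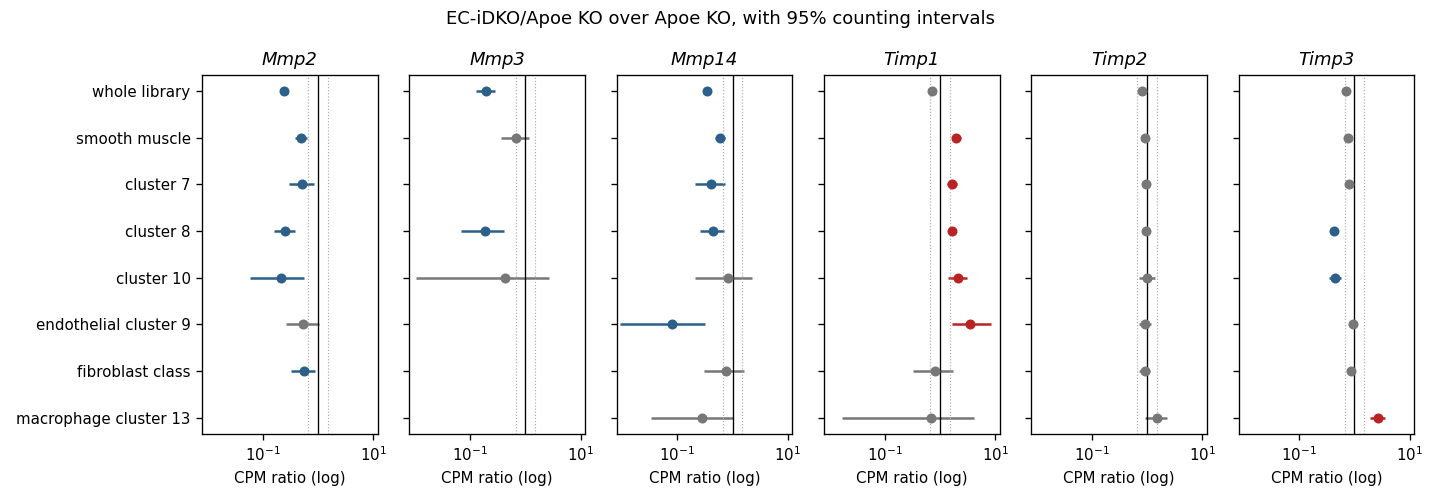
Ratio of the double knockout to Apoe KO for each gene in 8 populations, on a log axis with 95% intervals for counting error; red marks a call higher, blue a call lower and grey no call, with dotted lines at 1.5-fold, and no point is drawn under 20 UMIs or at 0 double knockout UMIs. The proteases lie below 1 in cluster 8 (Mmp2 at 0.251, Mmp3 at 0.188, Mmp14 at 0.434), Timp1 lies above 1 at 1.68, and Timp2 lies on 1 at 0.969.

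Counted by population, cluster 8 had the most calls among the 6 genes, with 4 lower and 1 higher, where 5.38% of its 7943 genes were called lower and 7.98% higher. Smooth muscle had 2 lower and 1 higher, against 7.67% and 9.87% of 11941 genes. Cluster 7 had 2 lower and 1 higher of the 5 genes with at least 20 UMIs, against 7.19% and 6.72% of 6443 genes, and cluster 10 had 2 lower and 1 higher of 6, against 4.74% and 7.44% of 4449. Endothelial cluster 9 had 1 lower and 1 higher of 5, against 8.79% and 7.2% of 4109 genes. The fibroblast class had 1 lower and 0 higher of 5, against 5.56% and 6.26% of 4924 genes. Macrophage-like cluster 13 had 0 lower and 1 higher of 4, against 6.1% and 8.33% of 5537.

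The median log2 ratio of the 6 genes was -1.21 in cluster 8, where that of all genes with at least 20 UMIs was 0.05. It was -0.48 against 0.03 in smooth muscle and -0.93 against -0.01 in the whole library. In cluster 10 the medians were -0.67 and 0.01, and in endothelial cluster 9 they were -0.13 over 5 genes and -0.02 over all. In cluster 7 they were -0.30 over 5 genes and 0.00 over all, and in the fibroblast class -0.31 over 5 genes and -0.04 over all.

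Cluster 8 itself differed in its makeup. The 10 fibroblast markers, all detected in both libraries, summed to 9195 CPM in the double knockout and 29829 in Apoe KO, and the modulated smooth muscle markers (Lum, Fn1, Vcam1 and others) to 16055 and 32553. Contractile markers summed to 20899 CPM in the double knockout and 14351 in Apoe KO. The dissociation stress genes, such as Fos and Hspa1a, summed to 4610 and 10323 CPM. Macrophage markers summed to 14.6 CPM from 2 of 10 genes in the double knockout and to 541 CPM from 10 of 10 in Apoe KO. The part of these differences in the protease and Timp3 levels was not tested. Cluster 7 had fibroblast markers at 2213 CPM from 8 of 10 genes in the double knockout and at 5299 CPM from 10 of 10 in Apoe KO, and macrophage markers at 18.1 CPM from 3 of 10 and 247 CPM from 8 of 10. Its cycling genes summed to 58.2 CPM in the double knockout, where Cdk1 was at 0, and to 431 in Apoe KO, and its dissociation stress genes to 5162 and 10020. Cluster 10 also differed, with 8 chondrocyte-like markers at 3015 CPM in the double knockout, where Acan, Sox9 and Chad were at 0, and at 36793 CPM in Apoe KO. In cluster 10 the contractile markers summed to 46184 CPM in the double knockout and 26230 in Apoe KO. Fibroblast markers there summed to 2727 CPM from 6 of 10 genes in the double knockout and to 24047 CPM from 10 of 10 in Apoe KO. Its macrophage markers summed to 57.7 CPM from 2 of 10 and 1391 CPM from 9 of 10. The part of these differences in the results of clusters 7 and 10 was not tested.

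The cells that held the transcripts were not the same in the libraries. Cluster 8 held 12.9% of Mmp2 UMIs in the double knockout and 48.1% in Apoe KO, 18.8% and 74.5% of Mmp3 UMIs, and 11.1% and 34.4% of Mmp14 UMIs. For Timp2 and Timp3 the shares of cluster 8 were 7.20% and 3.92% in the double knockout and 23.4% and 24.7% in Apoe KO. Over all genes cluster 8 held 2.99% of UMIs in the double knockout and 11.6% in Apoe KO, so each of the 6 genes was more concentrated there than RNA in general. The SMC class held 72.6% of Timp3 UMIs in the double knockout and 53.2% in Apoe KO, and 72.3% and 52.1% of Timp2 UMIs, against 81.4% and 64.8% of all UMIs.

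**Figure D3:**
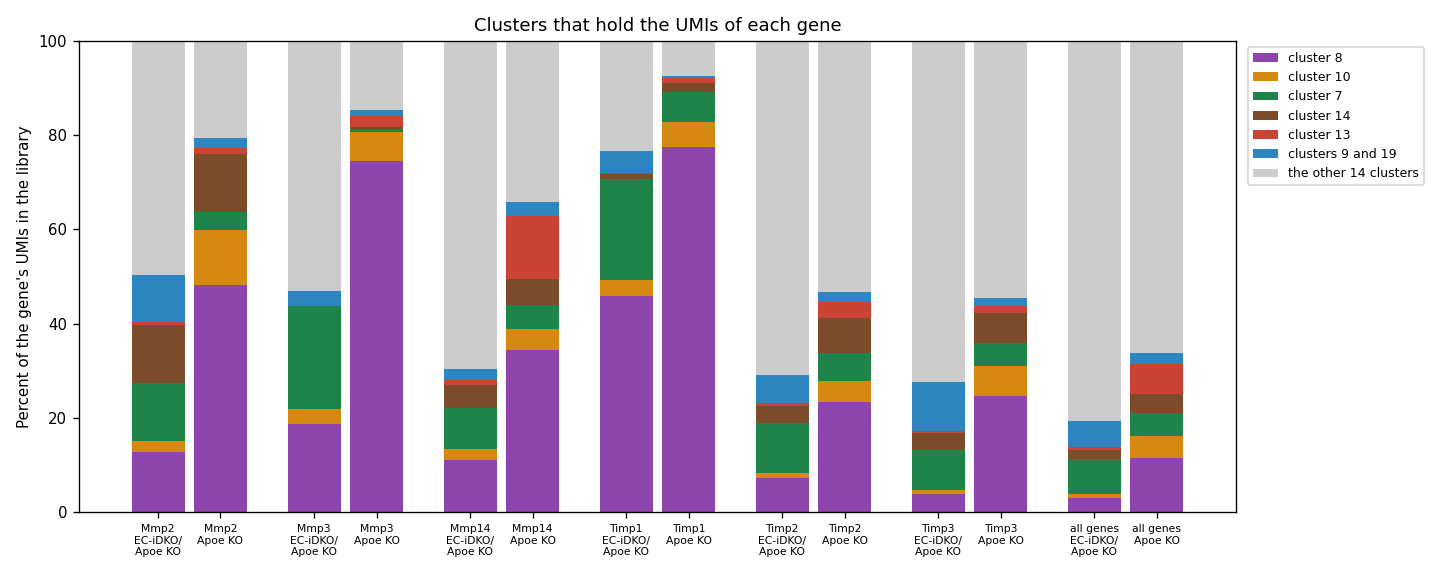
Percent of each gene's UMIs by deposited cluster, stacked to 100, with the double knockout left of Apoe KO for each gene and all genes beside them. Cluster 8 takes 77.4% of Timp1 and 74.5% of Mmp3 in Apoe KO, and 45.8% and 18.8% in the double knockout.

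As a measure of balance, the share of Mmp2, Mmp3 and Mmp14 among the UMIs of all 6 genes was compared between libraries, since it does not depend on the total of a population. It was 2.91% (2.63 to 3.22, exact binomial) in the double knockout and 7.39% (7.12 to 7.67) in Apoe KO over all cells. Smooth muscle gave 2.55% (2.23 to 2.91) against 3.71% (3.43 to 4.00), and cluster 8 gave 4.52% (3.34 to 5.97) against 11.5% (10.9 to 12.1). Endothelial cluster 9 gave 3.26% (1.91 to 5.16) against 9.70% (7.47 to 12.3). The intervals did not overlap in these populations. They did overlap in cluster 10 (5.73% against 10.2%) and in the fibroblast class (6.78% against 9.68%), while macrophage-like cluster 13 gave 4.11% from 3 protease UMIs against 20.2% from 153.

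Shares of cells with a UMI were compared after each cell was thinned to 1000 UMIs, which left out 97 of 148 double knockout cells and 8 of 184 Apoe KO cells of cluster 8. Mmp2 was then found in 7.84% (2.18 to 18.9, Clopper-Pearson) of double knockout cells and 29.5% (22.9 to 36.9) of Apoe KO cells, against 9.46% and 71.2% unthinned. Timp1 was found in 51.0% (36.6 to 65.2) and 36.4% (29.3 to 43.9), against 50.0% and 71.2% unthinned. The thinned Timp1 intervals overlap, so no order is read from them. Timp3 was found in 64.7% (50.1 to 77.6) and 83.0% (76.6 to 88.2), against 63.5% and 99.5% unthinned, and its thinned intervals overlap slightly. Mmp14 at 13.7% and 15.9% and Mmp3 at 5.88% and 6.82% also did not differ beyond their intervals once thinned.

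In smooth muscle, with 1500 double knockout and 1421 Apoe KO cells left after thinning, Mmp2 was found in 1.47% (0.921 to 2.21) and 4.15% (3.18 to 5.32), and Mmp14 in 2.00% and 3.17%. Timp1 was found in 45 of the 1500 and 34 of the 1421 cells, with intervals of 2.20 to 3.99% and 1.66 to 3.33% that overlap. Timp2 was found in 31.3% and 34.3%, and Timp3 in 66.8% and 71.3%.

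Free RNA gives some UMIs in cells that do not make a gene, and cluster 20 was set beside the other populations for this reason. Over both libraries it is led by T cell genes such as Cd3g, Cd3d, Cd3e and Trac. The 7 T cell markers had 499 UMIs in the whole Apoe KO library, of which 238 lay in macrophage-like cluster 13, at 275 CPM. In the double knockout they had 11, with 5 in cluster 13, 3 in smooth muscle, 2 in cluster 8 and 1 in endothelial cluster 9. The double knockout cells of cluster 20 thus cannot be called T cells, and are no sure measure of free RNA. Only 11 double knockout cells (median depth 1584 UMIs before thinning) and 24 Apoe KO cells (2201 UMIs) could be used there. Mmp2 and Mmp14 were found in 0 of them in both libraries. With a floor of 3 cells, which is not a Clopper-Pearson limit, this leaves room for 27.3% in the double knockout and 12.5% in Apoe KO. The smooth muscle shares of both genes lie under these values. Timp1 was found in 0 of the 11 and 1 of the 24 cells, too few to set against its low smooth muscle shares. Timp2 was found in 9.09% and 12.5%, and Timp3 in 81.8% (48.2 to 97.7) and 33.3% (15.6 to 55.3). Macrophage-like cluster 13 kept 15 double knockout and 139 Apoe KO cells after thinning. Its Timp3 share was 66.7% in the double knockout, at a median of 1174 UMIs before thinning, and 33.1% in Apoe KO, at 4783 UMIs. That share was at or under that of cluster 20 in both libraries, with overlapping intervals, so no expression is read from it. In the double knockout the Timp3 shares of smooth muscle and cluster 8 were also under that of its 11 cluster 20 cells. What those 11 cells are is not known, so no difference is read from these shares.

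**Figure D4:**
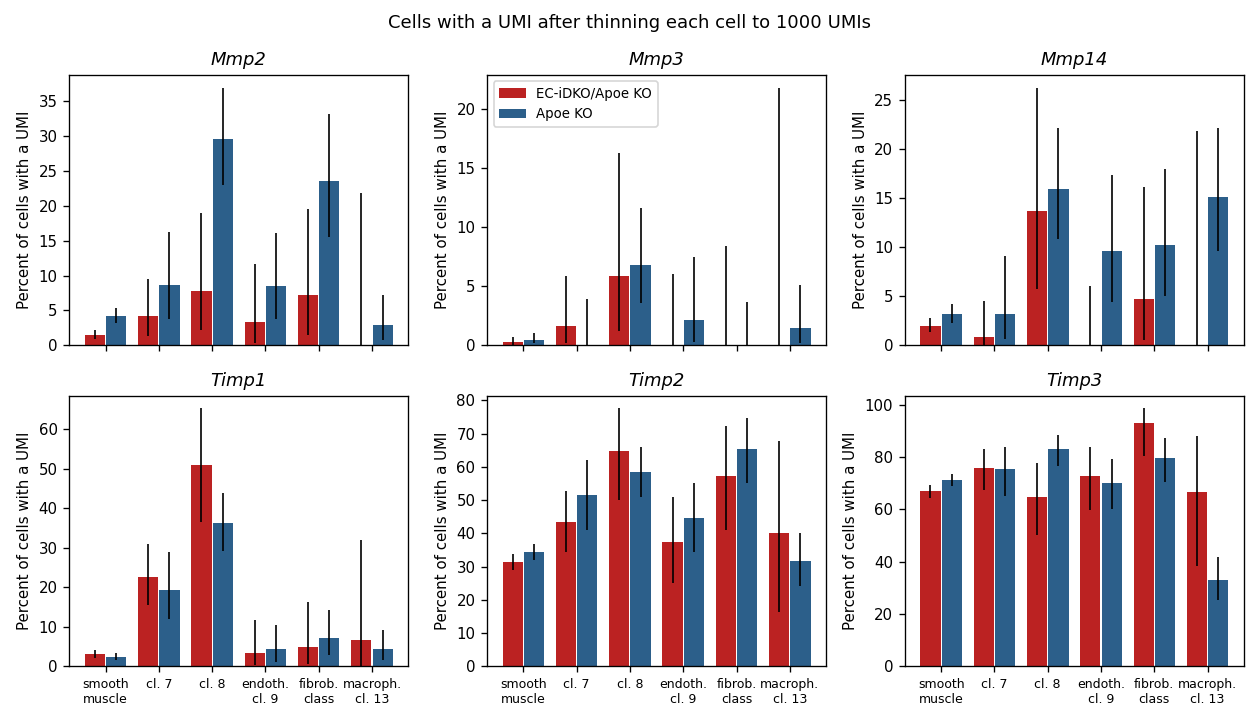
Percent of cells with a UMI of each gene after thinning to 1000 UMIs, with Clopper-Pearson intervals, with the double knockout in red left of Apoe KO in blue. In cluster 8, Mmp2 is at 7.84% in the double knockout and 29.5% in Apoe KO, and Timp1 at 51.0% and 36.4% with overlapping intervals.

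Levels were also set side by side among cells of like depth. In smooth muscle, Timp1 in the double knockout was 60.5 CPM (50.0 to 72.5) in cells under 1000 UMIs, 39.1 (27.8 to 53.4) in cells of 1000 up to 2000 and 29.2 in deeper cells. In Apoe KO it was 14.8 CPM (0.375 to 82.6) from 1 UMI in the shallow class, 49.5 (28.3 to 80.3) in the middle class and 20.1 in deeper cells. The intervals overlapped in the shallow and middle classes, so no order is read there. In deeper cells the ratio given above had an interval that left out 1 and was not called. Mmp2 in smooth muscle was 22.9, 15.0 and 10.1 CPM in the double knockout over the same classes, and 29.6 (2 UMIs), 52.6 and 30.3 CPM in Apoe KO. It was lower in the double knockout in the middle and deep classes, with intervals apart, while the intervals of the shallow class overlapped.

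In cluster 8, Timp1 stayed higher in the double knockout in each class, at 2482, 2037 and 1920 CPM, against 663 (4 UMIs), 457 and 1295 in Apoe KO. Timp3 in cluster 8 stayed lower in each, at 1313, 1455 and 1878 CPM in the double knockout against 2984, 3229 and 3726 in Apoe KO. Timp1 UMIs of cluster 8 were concentrated in few cells, with the 10 richest cells holding 51.0% in the double knockout and 59.7% in Apoe KO, and the largest single cell 103 and 323 UMIs. Without that cell in each library the ratio was 1.63.

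**Figure D5:**
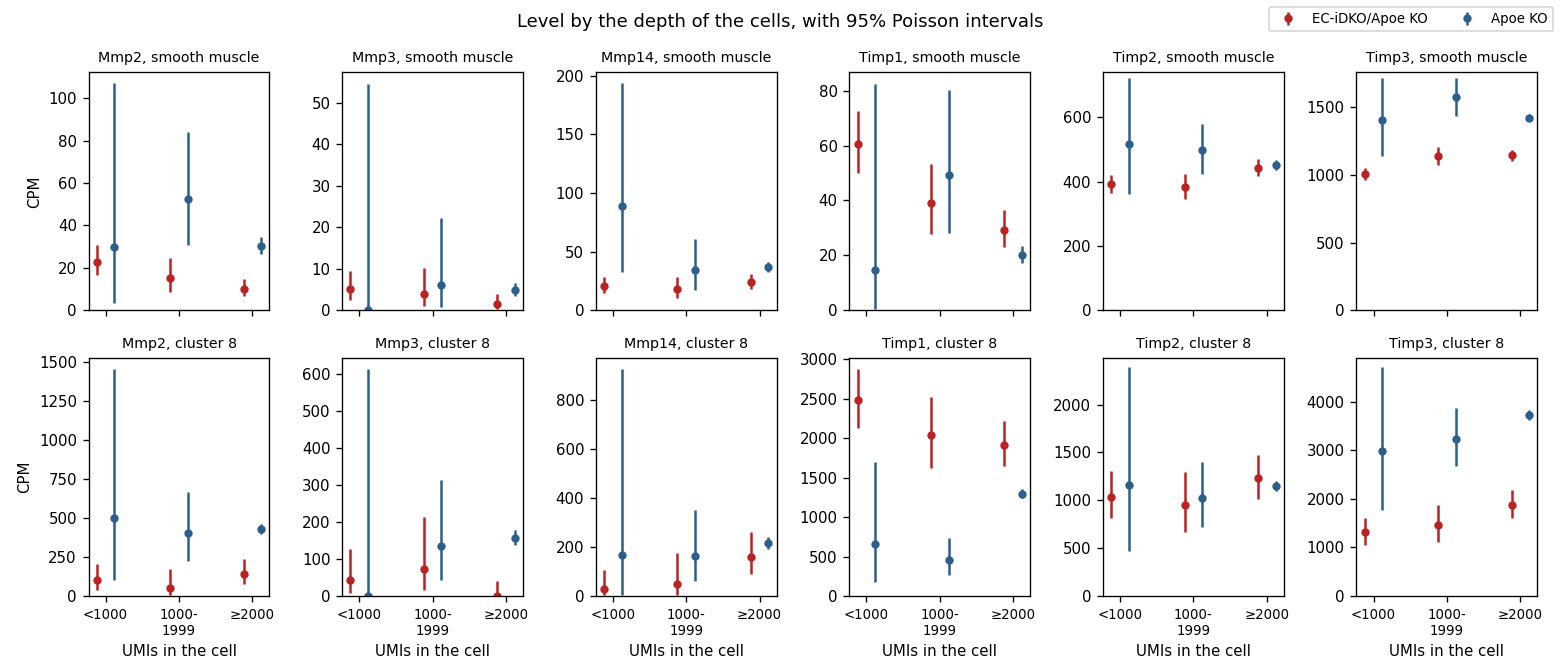
CPM of each gene by the depth of the cells, for smooth muscle above and cluster 8 below, with 95% Poisson intervals and the double knockout in red left of Apoe KO in blue. Timp3 in cluster 8 is lower in the double knockout at all 3 depths (1313, 1455 and 1878 CPM against 2984, 3229 and 3726). Timp1 in smooth muscle is at 39.1 against 49.5 CPM in the middle class and 29.2 against 20.1 CPM in the deep class, with overlapping intervals in each.

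Mmp14, Timp2 and Mmp2 act together at the cell surface, so their detection in the same cell was counted in cluster 8. After thinning to 1000 UMIs all 3 were found in 2 of 51 double knockout cells and 7 of 176 Apoe KO cells. Unthinned, they were found together in 5 of 148 and 72 of 184 cells. Thinned to 500 UMIs, which kept 147 and 184 cells, they were found together in 0 and 3. The share of cells with all 3 thus changed with the depth used, and no order between the libraries is read from it.

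Across the 18 clusters, Mmp2 and Timp2 levels had a Pearson correlation of 0.681 in the double knockout and 0.864 in Apoe KO on the log2(CPM + 10) scale. Mmp2 and Timp1 had 0.746 in the double knockout and 0.838 in Apoe KO, Mmp2 and Timp3 had 0.746 and 0.723, and Timp2 and Timp3 had 0.799 and 0.796. Clusters of a library share its depth and its free RNA, and no p is given. Among 3860 genes with at least 500 UMIs in Apoe KO, the 3 most like Mmp2 in that library were Frzb (0.962), Ltbp2 (0.920) and Enpp2 (0.919), of which Ltbp2 encodes a protein that binds elastic fibres. For Mmp3 they were Prg4 (0.849), C3 (0.845) and Col11a2 (0.839). For Mmp14 they were Rap1b (0.927), Ptpn1 (0.917) and Tmem176a (0.891). Timp1 was most like Ank (0.930), Sulf2 (0.912) and Lum (0.906), and Timp2 was most like Nbl1 (0.935), Mmp2 and Ltbp2 (0.862). Timp3 was most like the fibrillar collagen gene Col5a1 (0.943), Ssr3 (0.936) and the fibrillin gene Fbn1 (0.923). In the double knockout the same pairs ranged from 0.102 for Mmp3 with Col11a2 to 0.897 for Timp2 with Nbl1.

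Other genes of matrix turnover were read from lists of the same families. Of 9 other Mmp genes with at least 20 UMIs, 3 were called lower in the whole library and 0 higher, against 13.1% and 9.53% of all genes. Mmp12, the macrophage elastase, had 27 UMIs in the double knockout and 534 in Apoe KO, a ratio of 0.0982 (0.0641 to 0.144), yet within macrophage-like cluster 13 it was at 430 and 573 CPM, a ratio of 0.750 that was not called. The library held 57.2 CPM of macrophage markers in the double knockout and 1671 in Apoe KO. Mmp25 was at 3.94 and 12.4 CPM, a ratio of 0.318. In smooth muscle it was the single other Mmp gene of 6 that was called, lower at a ratio of 0.300, against 7.67% of all genes. Mmp17, a membrane-type enzyme, was at 40.5 and 42.2 CPM in smooth muscle, a ratio of 0.961.

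Of the other inhibitors, Timp4 was at 32.0 CPM in the double knockout and 21.3 in Apoe KO, and the membrane inhibitor Reck at 35.7 and 26.7. In the whole library 0 of 3 were called, against 13.1% of all genes lower and 9.53% higher. In smooth muscle 0 of 3 were called, against 7.67% and 9.87%. In cluster 8 both of the 2 with at least 20 UMIs were called higher, against 7.98% of all genes. So was 1 of 2 in cluster 7, against 6.72%, and 1 of 3 in the fibroblast class, against 6.26%. Those of cluster 8, named after their values were seen, were Reck at 53.7 and 23.4 CPM and Timp4 at 53.7 and 13.7 CPM, each from 11 UMIs in the double knockout. Of 12 convertases and partners in the whole library, 3 were called lower and 1 higher, against 13.1% and 9.53% of all genes. Cd44, the hyaluronan receptor that can hold Mmp14 at the cell surface, was at 20.1 and 77.9 CPM, and in cluster 8 at 63.5 and 210 CPM, a ratio of 0.302. Thbs1, which binds several matrix proteases, was at 400 and 1027 CPM in cluster 8, a ratio of 0.390. Pcsk7, a convertase of the furin family, was called higher in the whole library, at 22.3 and 14.3 CPM, a ratio of 1.56.

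Among the proteases with other chemistry, 5 of 12 cathepsins and cystatins were called lower in the whole library and 0 higher, against 13.1% and 9.53% of all genes, led by the macrophage protease Ctss with 36 and 2316 UMIs. In cluster 8, 4 of 12 were called lower, against 5.38% of all genes, among them the collagen-cutting Ctsk at 63.5 and 185 CPM and the inhibitor Cst3 at 3701 and 6123 CPM. Plat, the tissue plasminogen activator, was called higher in the whole library at 74.4 and 33.1 CPM, a ratio of 2.25 (1.97 to 2.56), and in smooth muscle at a ratio of 2.13 (1.83 to 2.47). The urokinase gene Plau was called lower in the whole library, with 18 and 131 UMIs and a ratio of 0.267. ADAM genes, whose sheddase activity Timp3 can inhibit, had 2 of 8 called lower in the whole library (Adam8 and Adam17) and 0 higher, against 13.1% and 9.53% of all genes. In endothelial cluster 9 Adam10 was called higher at 270 and 161 CPM, a ratio of 1.68 (1.13 to 2.52). ADAMTS genes had 2 of 11 called higher in the whole library, Adamts15 at 1.65 and Adamts4 at 1.63, against 9.53% of all genes, and 0 lower, against 13.1%. In cluster 8 none of the 7 ADAMTS genes with at least 20 UMIs was called, against 5.38% of all genes lower and 7.98% higher.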

How the data were processed

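Single-cell 3' RNA libraries, 1 per genotype, were made from dissociated mouse aorta, and the submitters' processing notes name Cell Ranger, Seurat and mm10 without versions. The authors deposited whole-number UMI counts per gene and cell, not normalized, per the file headers and the values. The deposited cell table gives class and cluster labels and, as a fraction per cell, the mitochondrial share of counts computed by the authors. How those labels were made, doublet removal included, is not given in the sources used here, and no doublet caller was run.

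Repeated barcodes were counted once. UMIs were summed per population and library and scaled to 1000000 (CPM), with exact Poisson intervals for levels, an exact conditional binomial interval for each ratio and Clopper-Pearson intervals for shares of cells, all at 95% and for counting error only. In the main comparisons, genes under 20 UMIs were not called and populations under 50 cells in either library were not compared. Cluster 20 and some subsets by depth held fewer cells, such as the 10 double knockout cells of cluster 10 left after thinning to 1000 UMIs. Python 3.11.15, numpy 2.4.6, scipy 1.17.1 and pandas 2.3.3 were used. The calculation was tested on simulated data.

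The 6 genes and the lists were chosen with earlier results of these data known, and the populations were narrowed after the data had been seen: cluster 15 was taken out of the smooth muscle class, cluster 9 alone was kept of the endothelial class and cluster 13 of the immune class, and the modEC class was compared by cluster. From each list the up to 4 genes of at least 50 UMIs with the largest log2 ratios in size could be named, whether called or not. The genes most like a member are the 3 with the highest Pearson correlation over clusters in Apoe KO. Listed genes that the count table does not hold were not analysed here. Sequences came from GENCODE M21 transcripts and RefSeq promoter windows on GRCm38.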

Additional observations from a re-analysis of the deposited data

Results flagged for a closer look

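The Timp3 ratio of the double knockout to Apoe KO lay on opposite sides of 1 in different populations. It was 2.62 in macrophage-like cluster 13, and it was 0.432 in cluster 8 and 0.448 in cluster 10, with intervals that left out 1 in each. The difference between these populations was not tested, since there was 1 library per genotype. In cluster 13 the contractile markers stood at 41071 CPM in the double knockout and 14633 in Apoe KO. The share of its cells with a Timp3 UMI did not exceed that of cluster 20, whose double knockout cells could not be called T cells.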

How the results depend on the processing

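Counted over genes and settings together, 48 of 48 ratios in smooth muscle stayed on their side of 1, as did 46 of 48 in cluster 8, 35 of 35 in cluster 7, 34 of 34 in the fibroblast class, 32 of 36 in cluster 10, 33 of 42 in endothelial cluster 9, 37 of 42 in cluster 13 and 40 of 42 in the whole library. In smooth muscle cells with at least 2000 UMIs the ratios were 0.334 for Mmp2, 0.318 for Mmp3, 1.46 for Timp1, 0.983 for Timp2 and 0.806 for Timp3, and after thinning to 1000 UMIs they were 0.336 for Mmp2, 1.34 for Timp1 and 0.814 for Timp3. Limited to cluster 8 cells that had 1000 UMIs or more, of which mitochondrial genes made up less than 10%, Timp1 was at 1.48. Cluster 8 cells with at least 2000 UMIs gave 0 for Mmp3, 0.739 for Mmp14, 1.48 for Timp1 and 0.504 for Timp3. Thinned, cluster 8 gave 0.789 for Mmp14, 2.71 for Timp1, 1.12 for Timp2 and 0.510 for Timp3. Cluster 8 cells of 500 up to 2000 UMIs, a setting chosen after seeing the data, gave 0.471 for Mmp3, 0.224 for Mmp14 and 4.79 for Timp1. Of the called ratios, those that crossed 1 were Timp1 in cluster 10 among cells with at least 2000 UMIs (0, from 1 double knockout cell), Mmp2 in thinned cluster 10 (1.11, from 10 double knockout cells), and Timp1 in endothelial cluster 9, at 0 among cells with at least 2000 UMIs and 0.797 thinned. Of the ratios not called, those that crossed 1 and left their first interval were Timp2 in cluster 13 among cells with at least 2000 UMIs (0.366), and, in endothelial cluster 9, Mmp2 (1.56), Timp2 (1.26) and Timp3 (1.16) among cells with at least 2000 UMIs and Timp3 over the whole deposited class (1.95), in thinned cluster 8 Timp2, as given, and in the whole library Timp1 thinned (1.05) and with clusters weighted by Apoe KO UMIs (1.68). The cause was not tested. Leaving out the cell with the most UMIs of a gene, also chosen after seeing the data, ended no call in smooth muscle or cluster 8.

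With a minimum of 100 UMIs, 1025 genes were called lower in the whole library, 585 lower in smooth muscle and 306 higher in cluster 8. With a ratio of at least 2, the counts were 497 higher and 1140 lower in the whole library, 436 and 426 in smooth muscle and 392 higher in cluster 8. Thinned, they were 987 lower in the whole library, and 173 higher and 144 lower in cluster 8. Fewer genes or larger ratios are counted under these settings by construction. No paired analysis was possible because there was 1 library per genotype, and no replicate could be left out.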

Other observations

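In the Sema3g-led endothelial cluster 19, where Timp3 was at its highest level in the double knockout, 2 genes of the families that Timp3 can inhibit also had their highest levels of that library. Adamts1, which cuts proteoglycans such as versican, had 317 UMIs or 3074 CPM there, and the next highest cluster of the double knockout was cluster 5 with 691 CPM. Adam15 had 39 UMIs or 378 CPM in cluster 19 and 33 UMIs or 122 CPM in cluster 9. The 9 Apoe KO cells of cluster 19 held 7 Adamts1 UMIs and 4 Adam15 UMIs, too few to compare. Both genes were picked after their values were seen, and the clustering used them.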
